A study of Homo sapiens with 4 samples.

Results

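The data compare 2 knock-downs with each other: human embryonal carcinoma (hEC) cells in which OCT4 was silenced and hEC cells in which NANOG was silenced. All cells were of the line NCCIT, an established line from a germ cell tumour that serves as a model of undifferentiated pluripotent cells. They were plated at 70000 cells per square cm, transfected with esiRNA (a pool of short interfering RNAs cut from one long double strand) against the OCT4 or the NANOG message, and harvested at day 2.5, as the labels give it. The study's methods describe a lower plating density and a harvest counted in whole days after transfection, and which applied to these arrays is not settled by the sources used here. Each knock-down was hybridised as 3 biological replicates per the labels, so 6 of the 12 arrays of the study entered the comparison and no mock array did. The mock cells received the transfection reagent without esiRNA, and their levels are given below for orientation only. Both knock-downs shared the cell line, the reagent, the change of medium on the next day and the time of harvest. A single line was used, and what separated the replicates (cultures or transfections) is not given in the sources used here, so p-values measure the spread between these samples.

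Each array was an Illumina BeadChip with 47289 probes. Levels are background-corrected, quantile-normalised log2 signals with 16 added to the linear signal, a step that makes the fold change of a weak probe smaller than it was in the signal. Every difference is the OCT4 knock-down minus the NANOG knock-down, so a negative value means a lower level after OCT4 knock-down. A probe was called different when its fold was at least 1.5 and its adjusted p (limma, Benjamini-Hochberg over all tested probes) was below 0.05. In bulk RNA, fewer cells of a kind and less RNA per cell cannot be told apart.

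OCT4 (gene POU5F1), NANOG and SOX2 are the DNA-binding proteins at the core of the pluripotent state. OCT4 is a POU homeodomain protein that reads an octamer of bases and often binds next to SOX2, while NANOG is a homeodomain protein of its own class. Their target genes include further germ line and early embryo factors as well as the genes of the 3 factors themselves. In embryonic stem cells, loss of OCT4 is known for driving exit from self-renewal towards extraembryonic fates, and NANOG is known for holding back differentiation.

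The esiRNA pools are shown by the primers that bounded their templates, since these fix which stretch of each message was attacked. The study designed 1 OCT4 pool and 2 NANOG pools from different stretches of the message, and which NANOG pool each array received is not given in the sources used here. The primers, without the added T7 promoter, read 5′ to 3′:
OCT4 forward: gagaaggagaagctggagca
OCT4 reverse: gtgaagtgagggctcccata
NANOG 1 forward: aactggccgaagaatagcaa
NANOG 1 reverse: ctcgctgattaggctccaac
NANOG 2 forward: gactgagctggttgcctcat
NANOG 2 reverse: tctggaaccaggtcttcacc

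The 6 arrays were close to each other within a knock-down and further apart between them. Correlations of log2 levels were 0.993 to 0.997 over the 6 pairs of the same knock-down and 0.941 to 0.949 over the 9 mixed pairs. Between 12611 and 12858 probes were detected (detection score above 0.99) on the OCT4 arrays and between 11644 and 12270 on the NANOG arrays. The raw median signal was 115.9 to 124.2 on the OCT4 arrays and 102.5 to 108.7 on the NANOG arrays, so both measures differed between the knock-downs, and their part in the results was not tested beyond the alternative scalings given below. With 3 arrays a side, the number of arrays limits the precision, and the median standard error of a difference was 0.091 on the log2 scale.

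The targeted genes checked the labels and differed between the knock-downs in an uneven way. POU5F1 stood at log2 levels of 5.31, 5.10 and 4.73 on the 3 OCT4 arrays and at 8.77, 8.75 and 8.90 on the 3 NANOG arrays, with mock at 9.36, 9.09 and 9.23. After NANOG knock-down all 3 arrays thus lay a little below every mock array, and after OCT4 knock-down POU5F1 was detected on 1 of 3 arrays. The difference was -3.76 ± 0.14 (SE, n = 3 per group, adjusted p = 1.18e-07), a 13.6-fold lower level after OCT4 knock-down.

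NANOG itself was lower after OCT4 knock-down than after its own knock-down. Its levels were 4.83, 4.85 and 4.99 on the OCT4 arrays, 6.62, 6.46 and 6.54 on the NANOG arrays, and 8.39, 8.47 and 8.29 in mock. All 3 NANOG arrays were thus below mock and above every OCT4 array, with no overlap. It was detected on all arrays of the NANOG knock-down and on none of the OCT4 knock-down, so the level after NANOG knock-down was at least 2.55-fold higher (fitted difference -1.65 ± 0.08, adjusted p = 6.95e-07). SOX2 had no probe with a symbol here and was not analysed. The study reported its array signal as below detection and followed it by real-time PCR. Where the probes lie relative to the silenced stretches was not examined, and transcripts of near-identical copies of POU5F1 and NANOG elsewhere in the genome cannot be told from the genes by a hybridisation signal.

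**Figure D1:**
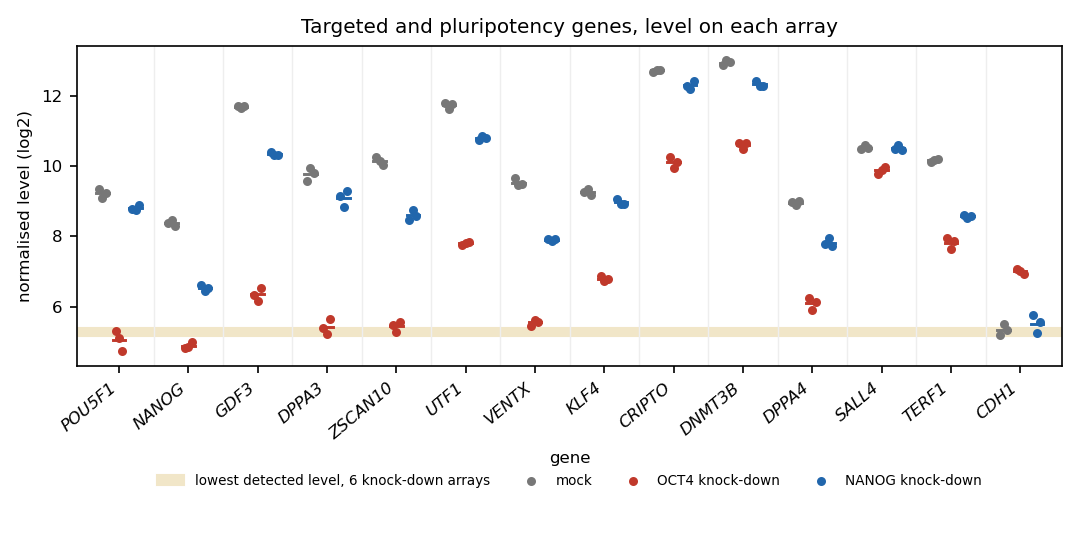
Log2 level (vertical axis) of 14 genes on each of 3 mock (grey), 3 OCT4 knock-down (red) and 3 NANOG knock-down (blue) arrays, with a short line at each group's mean, and a band over the lowest detected level of the 6 knock-down arrays. POU5F1 and NANOG lie in or below the band only after OCT4 knock-down, and the red points lie below the blue ones for every gene shown except CDH1.

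Sequence before the start of NANOG and of CRIPTO (TDGF1, the Nodal co-receptor) is shown because both genes were lower after OCT4 knock-down and both windows hold CATTGT, any base and then ATG, letters that join a SOX2-like and the first part of an octamer-like sequence (chosen after the values were seen). Among 35116 RefSeq promoter windows (250 bases before to 50 after a gene's start, GRCh38.p14), 123 (0.35%) held these letters on either strand. RARB, which was higher after OCT4 knock-down, also held them, and a match is no evidence of binding. The match is in capitals, as its reverse complement where it lies on the other strand. The NANOG window is chr12:7789241-7789340 (plus strand) and the CRIPTO window chr3:46577605-46577704 (plus strand):
NANOG: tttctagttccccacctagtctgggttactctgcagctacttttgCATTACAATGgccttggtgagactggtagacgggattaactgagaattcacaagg
CRIPTO: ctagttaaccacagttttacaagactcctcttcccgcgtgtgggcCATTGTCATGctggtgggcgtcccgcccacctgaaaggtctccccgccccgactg

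Over the whole array, 12207 probes were detected on all 3 arrays of at least 1 of the knock-downs and were tested. At any fold 53.0% had an adjusted p below 0.05. With the fold threshold, 1475 (12.1%) were higher after OCT4 knock-down and 1150 (9.42%) higher after NANOG knock-down, 21.5% in all. With this processing 183 probes were over 4-fold higher after OCT4 knock-down against 67 over 4-fold higher after NANOG knock-down. These 4-fold counts include probes detected in a single knock-down and were not repeated under the other scalings below. For 61.0% of tested probes the 3 arrays of one knock-down all lay above the 3 of the other. Of 499 tested probes detected on all OCT4 and no NANOG arrays 345 were called, and of 97 detected on all NANOG and no OCT4 arrays 81 were called. Both sets are defined by detection in a single knock-down, so the direction of their calls was largely fixed in advance. More probes were also detected on the OCT4 arrays.

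The share of calls that were higher after OCT4 knock-down was 56.2%, and it depended on the scaling. Scaling each array to its median over all probes, most of which were not detected, shifted the median difference of tested probes by 0.41, from -0.037 to 0.38, and put 90.9% of calls (3821 against 384) on the OCT4 side. Scaling to the median of probes detected on all 6 arrays, chosen after seeing the data, gave 1347 against 1377. Testing only the 10647 probes detected on all 6 arrays gave 955 against 979, so there too the majority turned.

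**Figure D2:**
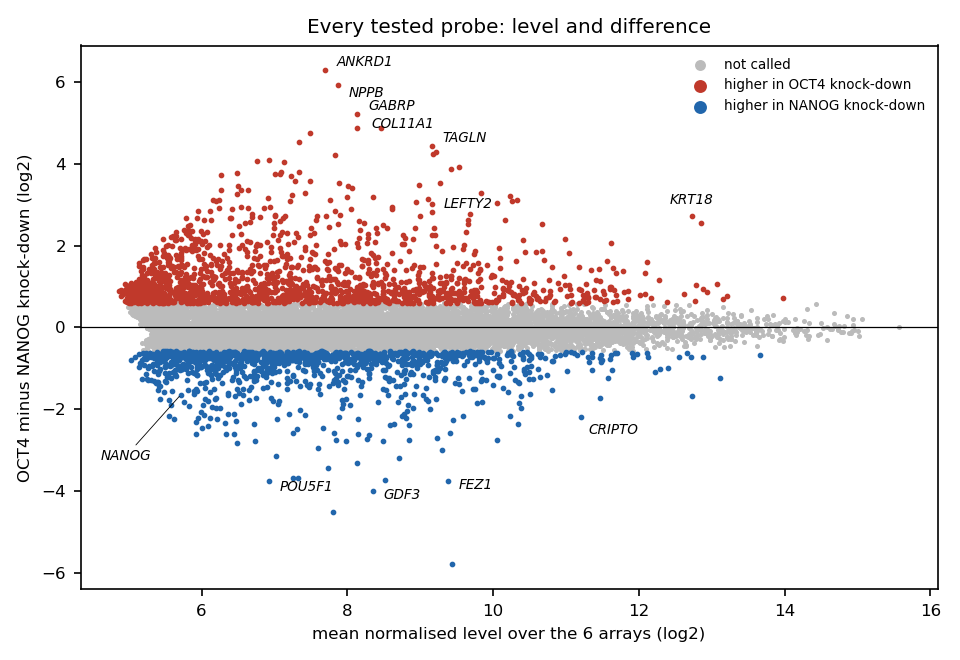
Each of the 12207 tested probes by its mean log2 level over the 6 arrays (horizontal axis) and its difference, OCT4 minus NANOG knock-down, in log2 (vertical axis); red probes were called higher after OCT4 knock-down, blue probes higher after NANOG knock-down and grey probes were not called. The red cloud reaches 6.29 (ANKRD1), and among named probes the blue one reaches -4.52 (a FEZ1 probe).

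Gene symbols were at hand only for probes that the study had listed as changed against mock, on these same arrays. Of 12207 tested probes 2857 had a symbol, and 61.8% of those were called, against 9.18% of the 9350 without one. Among the 2857 named probes 1087 were called higher after OCT4 knock-down and 680 after NANOG knock-down. The list counts below are read against these shares. Named genes are thus a set picked for movement in these samples, and the counts per gene list below describe that set and are not independent evidence of a list's direction. The largest difference towards the NANOG knock-down lay on a probe without a symbol here, at 6.54 ± 0.19 (SD, n = 3) after OCT4 and 12.34 ± 0.06 after NANOG knock-down.

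Most tested genes of the pluripotency list, genes known for marking undifferentiated or germ line cells, were lower after OCT4 knock-down. Of 28 tested genes 24 were higher after NANOG knock-down, 2 were higher after OCT4 knock-down and 2 were not called, with a median difference of -1.64 against -0.037 over all tested probes (-1.63 with the 2 genes detected in a single knock-down at their bounds). The count of 24 includes NANOG, itself a silenced gene. Under median scaling over all probes the count was 17 (median -1.24), and without background correction it was 21 (median -1.20). GDF3, a TGF-beta family ligand of pluripotent cells, measured 6.33, 6.17 and 6.54 after OCT4 knock-down, 10.41, 10.33 and 10.33 after NANOG knock-down, and 11.71, 11.66 and 11.71 in mock, a 16.1-fold difference. DPPA3, a maternal and germ line factor, measured 5.39, 5.21 and 5.64 after OCT4 knock-down against 9.15, 8.84 and 9.30, a 12.8-fold difference. A second probe, for a locus the study listed under the same older name as DPPA3, differed by -3.43 ± 0.14 (SE).

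ZSCAN10, a zinc finger factor of embryonic stem cells, was 8.92-fold and UTF1, a chromatin-bound factor of undifferentiated cells, 7.99-fold lower after OCT4 knock-down. For UTF1 the arrays read 7.76, 7.83 and 7.83 after OCT4 knock-down and 10.75, 10.86 and 10.79 after NANOG knock-down, with mock at 11.74 ± 0.10 (SD). OTX2, a homeobox factor of the epiblast and forebrain, had 6.75, 6.33 and 6.49 against 9.25, 9.02 and 9.03, and its NANOG knock-down level lay above mock (7.83 ± 0.11). In the same list the gap was narrower for genes chosen after their values were seen: 4.56-fold for KLF4, 3.29-fold for DPPA4 and 1.56-fold for SALL4. TERF1, a telomere-binding protein also chosen after its values were seen, had probes that disagreed, with 1 called at -0.76 ± 0.09 and 1 not called at -0.42 ± 0.10.

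Members of the list did not all move together. E-cadherin (CDH1), an adhesion molecule of epithelia and of pluripotent cells, was 2.80-fold higher after OCT4 knock-down, at 7.08, 7.0 and 6.92 against 5.75, 5.25 (below detection) and 5.55. SOX3, an HMG box factor related to SOX2, was at least 1.53-fold higher there. ZIC2 (-0.38 ± 0.10) and TFCP2L1 (-0.07 ± 0.13) were not called, and PRDM14 and HESX1, named after their values were seen, were not detected on all 3 arrays of either knock-down.

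Mesoderm and muscle genes gave the reverse picture. Of 29 tested genes 25 were higher after OCT4 knock-down and 2 after NANOG knock-down, with a median of 2.04 (1.69 with the 9 genes detected in a single knock-down at their bounds). Over the 15 genes detected on all 6 arrays, 11 and 2 were called and the median was 1.32. The other genes passed the detection filter through a single knock-down, which favours a difference towards it. TAGLN, an actin-binding protein of smooth muscle, measured 11.15, 11.55 and 11.43 after OCT4 knock-down against 6.65, 7.29 and 6.89 after NANOG knock-down, a 21.6-fold difference. Smooth muscle actin (ACTA2) measured 9.22, 9.16 and 9.05 against 5.73, 4.74 and 4.86, the last 2 of which were below detection, and differed 16.4-fold.

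Transcription factors of the list were called on both sides. MEF2C, a muscle transcription factor, was 7.73-fold higher after OCT4 knock-down and ISL1, a homeobox factor of heart progenitors, 7.59-fold. TBX3, a T-box factor, was at least 6.80-fold and the receptor PDGFRB at least 6.15-fold higher, both undetected on every NANOG array. FOXF2 (-1.07 ± 0.08) and NKX3-2 (-1.05 ± 0.08) were higher after NANOG knock-down, while ACTG2, the smooth muscle gamma actin, was not called at -0.38 ± 0.07. The 6 tested genes of the endothelial list were all called higher after OCT4 knock-down (median 1.44, or 0.95 with 3 at their bounds), among them the adhesion molecule ESAM at least 2.06-fold, the clotting factor carrier VWF 2.91-fold and the ETS factor FLI1 2.91-fold. Without background correction 3 of the 6 were called (median 0.57), and with an offset of 50 it was 5 (median 0.84). Only CLDN5 of the 6 was detected on all 6 arrays (difference 0.85). The others passed the detection filter through a single knock-down, which favours a difference towards it. Mock lay between the knock-downs for ESAM (6.38 after OCT4 knock-down, mock 5.73 ± 0.10 (SD), 4.68 after NANOG knock-down). The same held for FLI1 (6.81, mock 6.13 ± 0.11, 5.27), which was detected on 1 of 3 NANOG arrays. For CLDN5 of this list mock lay below both knock-downs (5.97 ± 0.42). None of the endoderm list was tested: 1 of its 12 genes had a symbol, and it was not detected on all 3 arrays of either knock-down.

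Matrix genes were mostly higher after OCT4 knock-down: 37 of 49 tested genes, against 3 higher after NANOG knock-down and 9 not called, with a median of 1.26 (1.12 with 11 genes at their bounds). Over the 34 genes detected on all 6 arrays, 22 and 3 were called and the median was 1.07. COL11A1, a fibrillar collagen chain of cartilage, read 10.57, 10.58 and 10.55 against 5.70, 5.80 and 5.57, which was 29.3-fold. Fibronectin (FN1) read 10.71, 10.73 and 10.72 against 7.35, 7.24 and 7.12, 11.2-fold, with the NANOG knock-down below mock (7.98 ± 0.14). Tenascin C (TNC), an adhesion-modulating glycoprotein, was detected in mock at 7.61 ± 0.02 but on none of the NANOG arrays, and was at least 7.88-fold higher after OCT4 knock-down. COL9A1, another cartilage collagen chain, went the other way, at 5.32, 5.53 and 5.78 after OCT4 knock-down and 7.15, 7.21 and 7.22 after NANOG knock-down.

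Epithelial keratins and junction genes were also higher after OCT4 knock-down, 22 of 25 tested (median 1.49, or 1.2 with 7 at their bounds). Keratins 18 and 8, the paired intermediate filaments of simple epithelia, were 6.62- and 5.88-fold higher. For KRT18 the levels were 14.12, 14.07 and 14.07 after OCT4 knock-down, 11.39, 11.39 and 11.31 after NANOG knock-down, and 12.33 ± 0.07 in mock. Many processed copies of these keratins exist, which a hybridisation signal cannot tell apart. The desmosomal cadherin DSC2, detected on 2 of 3 NANOG arrays, was 6.66-fold, and the cadherins CDH11 and CDH3 were at least 6.96- and 5.19-fold higher. Only CLDN14, a tight junction claudin, was called higher after NANOG knock-down (-0.88 ± 0.08), a call lost under median scaling over all probes.

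Of 13 tested genes on the amnion and trophoblast list, 12 were higher after OCT4 knock-down and 1 after NANOG knock-down, with a median of 2.55 (2.03 with 2 at their bounds). The 8 genes detected on all 6 arrays were all higher after OCT4 knock-down, with a median of 1.71. The list held 21 genes, and those without a symbol here could not be counted. The study found no significant array expression of the trophoblast markers CDX2, CSH1, HCG and KRT7. By PCR it saw a transient rise of CDX2 and KRT7, and it concluded that OCT4 knock-down did not turn NCCIT cells into trophoblast. GABRP, a GABA-A receptor subunit of epithelia including the amnion, read 10.80, 10.78 and 10.64 after OCT4 knock-down against 5.22 (below detection), 5.74 and 5.62 after NANOG knock-down, 37.1-fold, with mock at 4.71 ± 0.07. VTCN1, a surface protein of the B7 family, was at least 4.09-fold and KRT19 6.69-fold higher. TFAP2A, a transcription factor of surface ectoderm and trophoblast, was the exception, at 4.80, 5.01 (the first 2 below detection) and 5.26 after OCT4 knock-down and 7.74, 7.68 and 7.50 after NANOG knock-down. Mock lay between the knock-downs at 6.07 ± 0.10, and the difference was -2.62 ± 0.12 (adjusted p = 5.11e-07). Among other GABA receptor genes, GABRA5 (-0.86 ± 0.10) was higher after NANOG knock-down, a call lost under median scaling over all probes, and GABBR1 was not called (-0.02 ± 0.08).

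**Figure D3:**
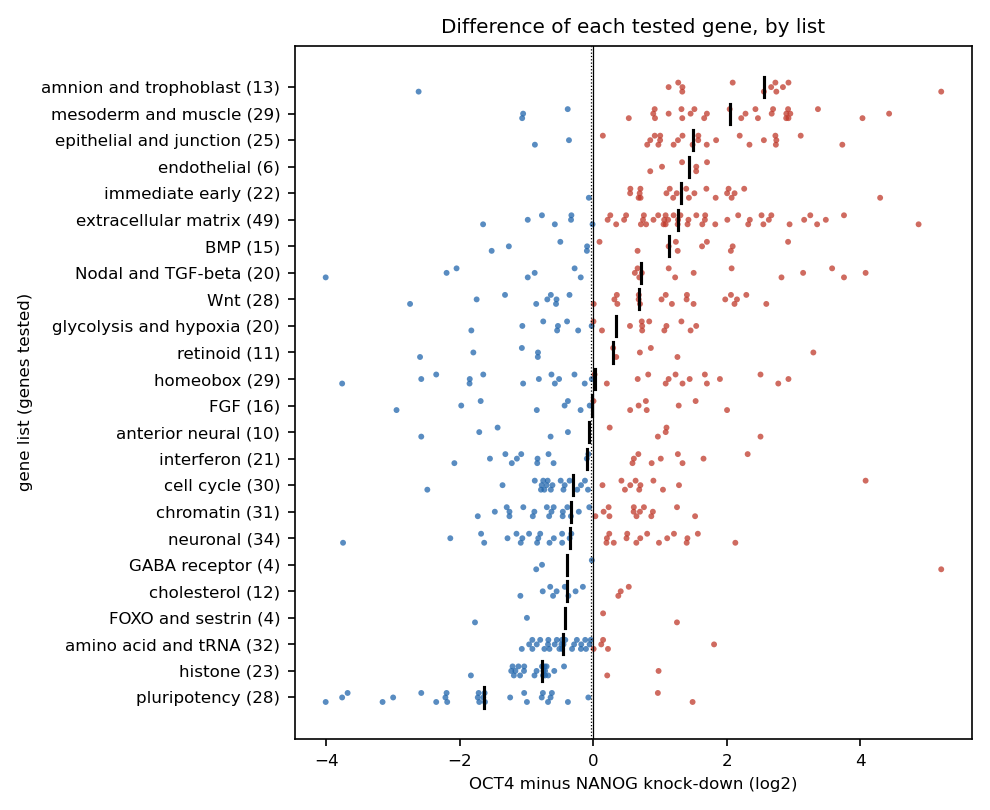
Difference, OCT4 minus NANOG knock-down in log2 (horizontal axis), of each tested gene on 24 lists (vertical axis, with the number of genes tested), red where above 0 and blue where below. Black bars mark each list's median and the dotted line the median of all tested probes (-0.037); the amnion list has the highest median (2.55) and the pluripotency list the lowest (-1.64).

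**Figure D4:**
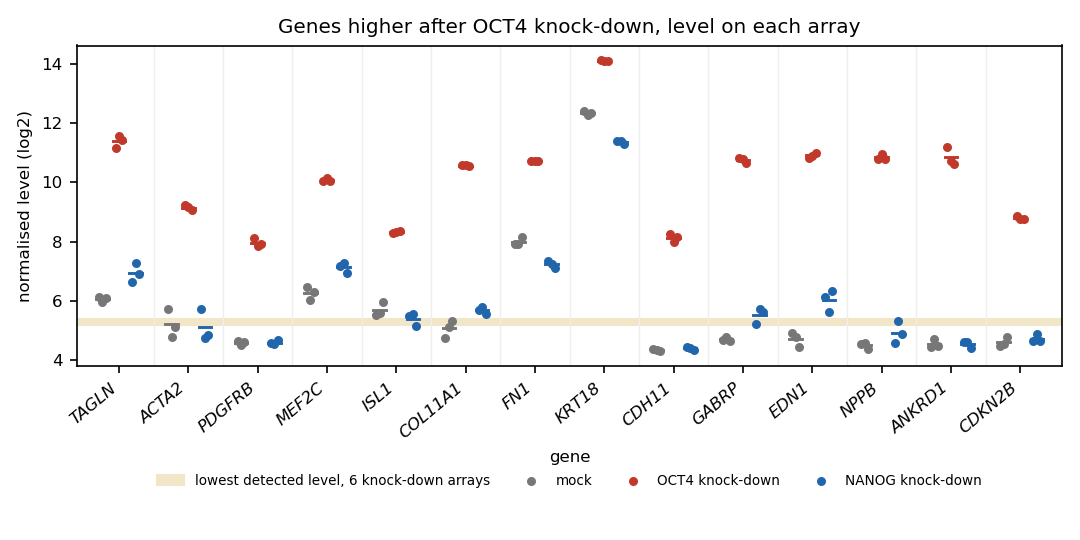
Log2 level (vertical axis) of 14 genes on each mock (grey), OCT4 knock-down (red) and NANOG knock-down (blue) array, with lines at group means and a band over the lowest detected level of the 6 knock-down arrays. All red points lie above all blue points, and for PDGFRB, CDH11, NPPB, ANKRD1 and CDKN2B no NANOG knock-down array detected the gene.

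Genes of the Nodal and TGF-beta family were called on both sides. Nodal signals through the co-receptor CRIPTO and is blocked by LEFTY proteins, while follistatin (FST) traps the related activins. Of 20 tested genes of this list 13 were higher after OCT4 knock-down and 5 after NANOG knock-down, with a median of 0.71. CRIPTO read 10.26, 9.95 and 10.12 after OCT4 knock-down and 12.30, 12.21 and 12.42 after NANOG knock-down, 4.59-fold. FST read 7.81, 7.75 and 7.82 against 9.84, 9.85 and 9.83, with mock between them at 8.62 ± 0.14.

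The Nodal inhibitor LEFTY2 was higher after OCT4 knock-down. Its arrays read 10.54, 10.65 and 10.55 against 7.74, 7.76 and 7.77, and both were above mock (5.48 ± 0.16), a 7.06-fold gap between the knock-downs. LEFTY1, its neighbour with a closely similar sequence, was not called (5.38, 5.50 and 5.49 against 5.62, 5.64 and 5.95), and signals of the 2 genes may not be fully separable. Genes known to respond to TGF-beta were among the higher ones after OCT4 knock-down: THBS1, an adhesive glycoprotein, 13.5-fold, TGFBI, a secreted matrix protein, 11.9-fold and CCN2, a matricellular protein, 4.20-fold. The CDK inhibitor CDKN2B read 8.88, 8.76 and 8.74 after OCT4 knock-down and was undetected on every NANOG array, at least 11-fold.

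In the BMP list 9 of 15 tested genes were higher after OCT4 knock-down and 2 after NANOG knock-down (median 1.13). Over the 10 genes detected on all 6 arrays, 5 and 1 were called and the median was 0.38, and without background correction the median over all 15 was 0.61. The ligand BMP4 read 8.33, 8.24 and 8.37 against 5.97, 6.33 and 6.36, 4.25-fold, with mock at 6.16 ± 0.04. The extracellular BMP antagonist GREM1 read 9.52, 9.11 and 9.25 against 7.30, 7.14 and 7.26, and mock was lower than both (4.96 ± 0.22). MSX1, a homeobox target of BMP signals, was 3.25-fold higher after OCT4 knock-down, but the targets ID2 (-0.10 ± 0.08) and SMAD6 (-0.09 ± 0.10) were not called. The BMP co-receptors RGMA (2.40-fold) and RGMB (at least 2.61-fold) were higher after NANOG knock-down.

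The FGF list was mixed, with 6 of 16 tested genes higher after OCT4 knock-down, 4 after NANOG knock-down and a median of -0.03, which turned to 0.46 under median scaling over all probes and to 0.02 with signals floored at 20. Its shares lay near those of all named probes (1087 and 680 of 2857). Without background correction 3 were higher after OCT4 and 4 after NANOG knock-down. ETV4, an ETS factor induced by FGF signals, read 6.21, 6.08 and 6.07 against 8.95, 9.34 and 8.90, 7.72-fold lower after OCT4 knock-down. The ligand FGF19, detected on 2 of 3 OCT4 arrays, was 3.94-fold and the receptor FGFR3 3.22-fold lower. Other genes induced by the same pathway went the opposite way: the MAP kinase phosphatase DUSP6 read 7.07, 6.82 and 7.02 after OCT4 knock-down and 5.74, 5.19 (below detection) and 5.38 after NANOG knock-down, with mock above both at 7.66 ± 0.04, and ETV5 was 1.74-fold higher after OCT4 knock-down. The ligand FGF18 was at least 1.59-fold and the decoy receptor FGFRL1 at least 2.90-fold higher there. FGF2, named after its values were seen, was not tested, since it was detected on 0 OCT4 and 2 NANOG arrays, and the feedback inhibitor SPRY1 was not called (-0.19 ± 0.14).

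In the Wnt list 15 of 28 tested genes were higher after OCT4 knock-down and 6 after NANOG knock-down (median 0.68). WLS, the carrier that escorts Wnt proteins to the surface, read 11.32, 11.27 and 11.30 against 6.94, 7.10 and 7.13, 18.9-fold. The receptor FZD2 was 6.03-fold, the nuclear factor LEF1 at least 3.55-fold and the ligand WNT5B at least 3.40-fold higher after OCT4 knock-down. The secreted inhibitors differed from each other: SFRP1 was 4.44-fold higher after OCT4 knock-down, whereas SFRP2 (3.36-fold) and FRZB (2.50-fold) were higher after NANOG knock-down. FRAT2, an activator of the pathway, was 6.70-fold higher after NANOG knock-down.

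Retinoid genes were called on both sides. The cellular retinoic acid binding protein CRABP2 read 11.54, 11.50 and 11.41 after OCT4 knock-down and 8.14, 8.24 and 8.19 after NANOG knock-down, 9.82-fold, with mock at 6.43 ± 0.19. CYP26A1, which breaks retinoic acid down, read 8.02, 8.07 and 8.24 against 10.68, 10.66 and 10.78, 6.04-fold higher after NANOG knock-down, with mock between (9.48 ± 0.05). Its second probe had the same direction, at least 2.81-fold. In all, 4 of 11 tested genes of this list were higher after OCT4 and 5 after NANOG knock-down (median 0.30, and -0.27 over the genes detected on all 6 arrays). Under median scaling over all probes 6 were higher after OCT4 and 3 after NANOG knock-down, with a median of 0.70.

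**Figure D5:**
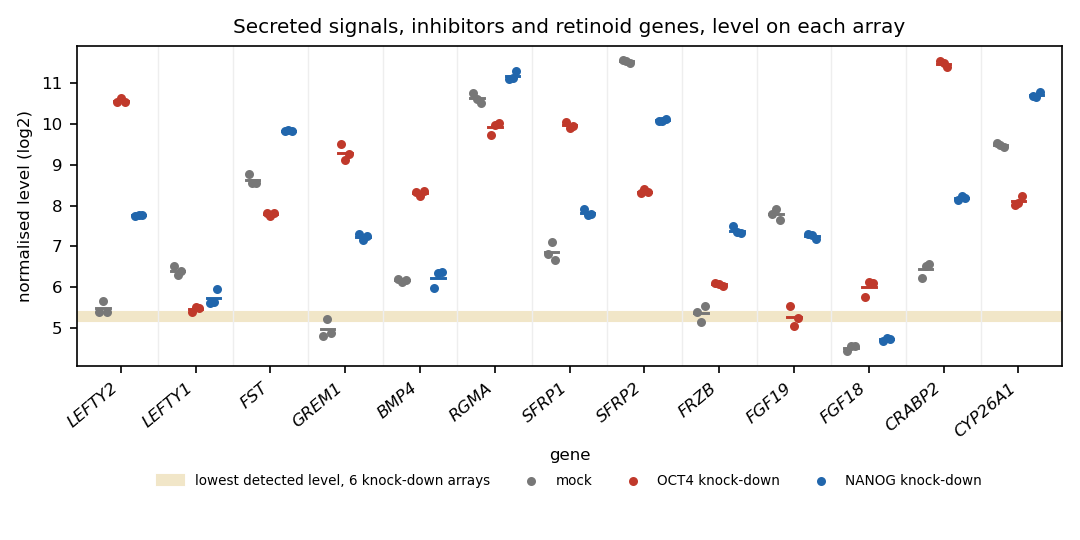
Log2 level (vertical axis) of 13 secreted signals, inhibitors and retinoid genes on each mock (grey), OCT4 knock-down (red) and NANOG knock-down (blue) array, with lines at group means and a band over the lowest detected level of the 6 knock-down arrays. Mock lies between the knock-downs for FST, RGMA and CYP26A1, below both for LEFTY2, GREM1, FRZB and CRABP2, and above both for LEFTY1, SFRP2 and FGF19. FGF18 was detected on no mock and no NANOG knock-down array, so these have no order.

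Homeobox genes were divided, 13 of 29 tested being higher after OCT4 and 9 after NANOG knock-down (median 0.02, 0.48 under median scaling over all probes, and -0.13 with 7 on each side over the genes detected on all 6 arrays). Among the 9 were the silenced genes NANOG and, at -3.76, POU5F1, whose direction was set by its own knock-down. Within the Iroquois family of patterning factors IRX1 and IRX2 were each 3.61-fold higher after NANOG knock-down, IRX1 at 11.23, 11.32 and 11.30 against 9.25, 9.54 and 9.50. IRX3 and IRX4 were at least 2.65- and 1.81-fold higher after OCT4 knock-down. DLX2, a forebrain and craniofacial factor, read 10.93, 11.23 and 11.06 after OCT4 knock-down and 8.14, 8.46 and 8.31 after NANOG knock-down, 6.82-fold, while its relative DLX5 was not called (-0.28 ± 0.16). LHX2, a LIM homeobox factor of the forebrain and eye, was 5.67-fold higher after OCT4 knock-down, and VENTX 5.11-fold higher after NANOG knock-down.

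The anterior neural list held 4 called genes on each side of 10 tested (median -0.07, 0.40 under median scaling over all probes and 0.00 without OCT4 array 2). Next to OTX2, the radial glia lipid carrier FABP7 (2.70-fold) was higher after NANOG knock-down. LHX2 and the progenitor filament nestin (NES, 2.14-fold) were higher after OCT4 knock-down.

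Neuronal genes likewise fell on both sides, 10 of 34 tested higher after OCT4 and 14 after NANOG knock-down, with a median of -0.34. Under median scaling over all probes the order turned, to 16 higher after OCT4 and 9 after NANOG knock-down with a median of 0.09. FEZ1, a kinesin adaptor of axon growth, had 3 probes with differences of -4.52, -3.75 and -3.74. On its brightest probe the levels were 7.48, 7.45 and 7.59 after OCT4 knock-down, 11.20, 11.30 and 11.26 after NANOG knock-down, and 9.40 ± 0.07 in mock. It thus lay below mock in the former and above mock in the latter.

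Other axonal and synaptic genes that were higher after NANOG knock-down were CEND1 (at least 3.76-fold), DPYSL3 (3.21-fold) and the synaptic pentraxin NPTX2 (2.44-fold). CNTNAP2, a neurexin-like adhesion protein, read 11.49, 11.43 and 11.49 after OCT4 knock-down and 9.32, 9.34 and 9.37 after NANOG knock-down, and the growth cone protein GAP43 was 2.96-fold higher after OCT4 knock-down. The calcium sensor NCS1 (0.51 ± 0.11) and SYT13 (0.50 ± 0.09) were not called.

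Histone genes, most of them of the replication-dependent kind, were mostly lower after OCT4 knock-down: of 23 tested histone genes 19 were higher after NANOG knock-down and 1 after OCT4 knock-down, with a median of -0.77 (-0.75 with 2 at their bounds). Under median scaling over all probes, 8 were higher after NANOG knock-down and the median was -0.50. H2AC25 read 7.10, 7.74 and 7.69 after OCT4 knock-down and 9.33, 9.41 and 9.30 after NANOG knock-down, 3.56-fold, and H2BC11 read 7.43, 7.35 and 7.47 against 8.65, 8.68 and 8.49, 2.28-fold. The exception was macroH2A1 (MACROH2A1), a replication-independent variant, 1.97-fold higher after OCT4 knock-down. The messages of clustered histone genes are close in sequence, so probes of different genes may share signal.

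Histone promoters are shown because the octamer ATGCAAAT that POU proteins read is known from promoters of this kind. Of 20 tested histone genes with a RefSeq promoter window, 11 held ATGCAAAT on either strand, against 1.77% of the 35116 windows (623). Of the 11 genes 9 were higher after NANOG knock-down, and of the 9 genes without it 7 were. The octamer was chosen after the values were seen, and many factors besides OCT4 read it. The 2 windows printed, with the match or its reverse complement in capitals, are of the holders with the largest differences. The first is shared by H3C4 and H2AC7, which RefSeq starts at the same base (chr6:26199360-26199457, minus strand), and the second is that of H2BC11 (chr6:27132796-27132887, minus strand):
H3C4 and H2AC7: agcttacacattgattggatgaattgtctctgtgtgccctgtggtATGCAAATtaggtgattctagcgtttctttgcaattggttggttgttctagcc
H2BC11: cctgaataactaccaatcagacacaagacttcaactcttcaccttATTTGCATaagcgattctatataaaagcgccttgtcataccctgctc

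Chromatin regulators were split, with 12 of 31 tested genes higher after NANOG and 9 after OCT4 knock-down (median -0.34), but under median scaling over all probes 6 and 12 were, with a median of 0.05. The de novo DNA methyltransferase DNMT3B was 3.32-fold, the Polycomb partner JARID2 2.78-fold, the MLL complex subunit ASH2L 2.46-fold and the corepressor BCOR 2.39-fold higher after NANOG knock-down. The histone deacetylase HDAC9 was at least 1.68-fold and the remodelling subunit BAZ1A 2.38-fold higher after OCT4 knock-down.

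Of 30 tested cell cycle genes 11 were higher after NANOG knock-down and 7 after OCT4 knock-down (median -0.30), but under median scaling over all probes 2 and 10 were, with a median of 0.06. RFC5, a clamp loader subunit of DNA replication, read 5.93, 6.16 and 6.12 after OCT4 knock-down and 8.66, 8.41 and 8.60 after NANOG knock-down, 5.60-fold. MYB was 2.57-fold and the mitotic kinase PLK1 1.84-fold higher after NANOG knock-down, the latter not called under median scaling over all probes. Besides CDKN2B, the mitosis-delaying kinase WEE1 (2.43-fold) and the CDK inhibitor CDKN1A (1.63-fold) were higher after OCT4 knock-down.

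Immediate-early and stress-response genes were called in a single direction: 19 of 22 tested genes were higher after OCT4 knock-down and none after NANOG knock-down (limma, median 1.32), where none of the 22 had an unadjusted p below 0.05 either. IER3, a short-lived stress-response protein, read 11.20, 11.47 and 11.43 against 6.94, 7.06 and 7.22, 19.7-fold, and mock lay between at 8.54 ± 0.11. The transcription factor KLF6 was 4.79-fold, the growth arrest protein GADD45B 4.07-fold and FOSL2, an AP-1 subunit, 4.01-fold higher. FOS (0.55 ± 0.08) and the C/EBP factor CEBPB (-0.07 ± 0.10) were not called. Beside mock the list had no single direction. Mock lay above both knock-downs for FOS (6.63 after OCT4, 6.08 after NANOG knock-down, mock 7.53) and for CEBPB (10.54, 10.61, mock 11.33). It lay below both for GADD45B (8.20, 6.17, mock 5.93) and CCN2 (12.66, 10.59, mock 9.91).

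In the amino acid and tRNA charging list 10 of 32 tested genes were higher after NANOG and 1 after OCT4 knock-down, with 21 not called (median -0.46, and -0.08 under median scaling over all probes, where 2 were called on each side). PYCR1, of proline synthesis, was 2.10-fold and ASS1, of arginine synthesis, 1.95-fold higher after NANOG knock-down, while the amino acid transporter SLC7A5 was 3.50-fold higher after OCT4 knock-down. Of 12 cholesterol genes 4 were higher after NANOG knock-down (among them DHCR7 at 2.13-fold, SCARB1 at 1.56-fold and SQLE at 1.52-fold), of which SQLE and SCARB1 lost the call when single arrays were left out (SQLE without OCT4 array 2, NANOG array 1 or NANOG array 3, at -0.58, -0.56 and -0.55; SCARB1 without OCT4 array 1, at -0.57). The list's median was -0.40, and under median scaling over all probes it was 0.02, with 1 gene higher after NANOG and 3 after OCT4 knock-down.

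Of 20 glycolysis and hypoxia genes 9 were higher after OCT4 knock-down, led by the glucose transporter SLC2A12 (2.91-fold) and NDRG1 (2.75-fold), and 3 after NANOG knock-down, led by the vasodilator peptide adrenomedullin (ADM, 3.55-fold). Among FOXO and sestrin genes, FOXO4 read 5.78, 5.81 and 5.72 after OCT4 knock-down and 7.43, 7.86 and 7.34 after NANOG knock-down. SESN3, a stress-induced regulator of growth signalling, was 2.38-fold higher after OCT4 knock-down, at 10.19, 9.98 and 9.98 against 8.83, 8.75 and 8.81, and both lay above mock (6.68 ± 0.04).

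Interferon-linked genes were called on both sides, 9 of 21 tested higher after OCT4 and 10 after NANOG knock-down (median -0.10). Under median scaling over all probes 9 and 7 were (median 0.39), and over the genes detected on all 6 arrays 8 and 6 were (median 0.26). EPSTI1 (4.97-fold), the ubiquitin-like modifier ISG15 (3.14-fold) and the transcription factor IRF1 (2.52-fold) were higher after OCT4 knock-down. TRIM22 (at least 3.58-fold), an antiviral RING protein, IFITM1 (2.33-fold), a membrane protein that blocks virus entry, and IFIT1 (at least 1.73-fold), which binds foreign RNA, were higher after NANOG knock-down. ISG15 read 8.81, 9.31 and 9.21 after OCT4 knock-down and 7.41, 7.58 and 7.39 after NANOG knock-down, and IFIT1 was undetected on all OCT4 arrays and read 5.99, 5.91 and 6.03 after NANOG knock-down.

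The largest named differences fell outside these lists in part. ANKRD1, a stretch-induced nuclear and sarcomeric protein of heart muscle, read 11.18, 10.73 and 10.61 after OCT4 knock-down and was undetected on every NANOG array, at least 45.5-fold. The natriuretic peptide gene NPPB read 10.79, 10.94 and 10.79 and was likewise undetected after NANOG knock-down, at least 45.4-fold. Endothelin 1 (EDN1), a vasoconstrictor peptide, stood at 10.90 ± 0.09 (SD, n = 3) against 6.03 ± 0.36, with no overlap, 29.3-fold.

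Further genes named by the same rule on the OCT4 side were PDLIM1 (18.4-fold), a PDZ and LIM protein of the actin cytoskeleton, LIX1 (15-fold), the cytochrome CYP1B1 (14.6-fold), the protease PRSS23 (14.0-fold), the EGF receptor ligand HBEGF (11.5-fold), LMCD1 (11.4-fold), FSTL1 (10.9-fold) and the metalloprotease ADAM19 (10.6-fold). Genes detected there and on no NANOG array included ALPK2 (at least 19.2-fold), ERP27 (12.4-fold), the small heat shock protein CRYAB (11.7-fold), PAMR1 (8.22-fold), MAP3K7CL (7.46-fold) and GLIPR1 (7.44-fold), all as lower limits.

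On the NANOG side the rule named, among others, VAT1L (10.0-fold), the potassium channel subunit DPP6 (6.92-fold) and HAS3 (6.81-fold), a hyaluronan synthase. Genes detected after NANOG knock-down and on no OCT4 array included the proline dehydrogenase PRODH (at least 5.86-fold), the acid-sensing channel ASIC2 (4.43-fold), PLEKHG6 (4.33-fold), the serotonin receptor HTR1D (4.14-fold), the Rh blood group gene RHD (4.12-fold, whose near-identical neighbour RHCE may share its signal), LMO1 (4.10-fold), CYP2S1 (3.72-fold) and XK (2.94-fold), again as lower limits. Of the 284 named probes these rules cover, 220 were called and 269 had no overlap between the knock-downs, which is read against 61.0% of all tested probes and against the way the names were obtained.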

How the data were processed

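RNA of 3 OCT4 and 3 NANOG knock-down replicates was hybridised to Illumina BeadChips. The authors deposited, per array, a raw signal intensity and a detection score per probe (BeadStudio 1.0, per the labels' processing notes), not background-subtracted. Here 4 control rows were left out. limma 3.58.1 in R 4.3.3 applied normexp correction with background estimated from the detection scores, an offset of 16, quantile normalisation over 12 arrays, log2, lmFit and eBayes on the 6 arrays, without mock. Probes detected (score above 0.99) on all 3 arrays of either knock-down were tested. For a probe undetected on all arrays of one knock-down, the fold is a lower bound against, per array, the higher of the lowest detected level and its own. The study's table of probe names gave symbols for 2892 of its 2985 probes (2481 updated through RefSeq accessions); part of it was not used here, its ratio and p columns never. The deposited group means (background-subtracted, rank-invariant normalised signal, linear scale, medians 146.311 for OCT4 and 152.398 for NANOG, r = 1.00 with the mean raw signal) served as an alternative. On simulated data (12207 probes) 85.1% of 67 probes changed 2-fold and 100.0% of 66 changed 4-fold were called. Of 67 changed 1.5-fold, which is the threshold itself, 19.4% were called. These changes were few, balanced by direction and given the same noise setting, while 21.5% of tested probes were called in the data. How well changes as many and as uneven as in the data are recovered was not tested.

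The members, gene lists and motifs were chosen with earlier results of these data known. Named genes were POU5F1 and NANOG, per direction the 15 largest called differences detected on all 6 arrays and the 10 largest bounds, and per list up to 6 called genes per direction and up to 4 not called; a gene was counted by its brightest probe. Genes outside this rule are said to be chosen after their values were seen; H2AC7 is named for its promoter. Some genes that the rule covers are not reported here.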

Additional observations from a re-analysis of the deposited data

How the results depend on the processing

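The 1475 probes higher after OCT4 knock-down and 1150 higher after NANOG knock-down changed with scaling, background correction and threshold. Median scaling over all probes gave 3821 and 384, no background correction 756 and 470, an offset of 50 gave 1029 and 746, testing only probes detected on all 6 arrays gave 955 and 979 (49.4% on the OCT4 side), any fold gave 2985 and 3483, and an adjusted p under 0.01 with a fold of 2 gave 670 and 353. Leaving out each array in turn gave 1445 to 1535 and 1086 to 1251. An equal-variance t-test on the levels used here, at the study's p under 0.01 and fold of 1.5, gave 1282 and 1029. After Benjamini-Hochberg it gave 1019 and 775. The study also required an Illumina model to pass and normalised its signals otherwise, so these counts do not repeat its calls. The replicate numbers come from file names and did not pair the samples (correlations of same-numbered deviations 0.33, 0.17 and -0.01), and a replicate block gave 1474 and 1150 and changed none of the 284 named calls. No named probe that was called reversed under any alternative run. Of 220 called ones, 31 lost the call without background correction, 26 under median scaling over all probes (ASS1, SCARB1, SQLE, CLDN14, PLK1 and GABRA5 among those named above), 10 with an offset of 50, and 1 or 2 without any single array. Without background correction list medians were smaller: 1.17 for mesoderm and muscle, 1.30 for amnion and trophoblast, 0.80 for epithelial genes and 0.37 for Wnt genes. The cause of these changes was not tested. The deposited group means, available for 233 named probes, kept the direction of every called one, with 78 moved by more than the replicate spread. The BeadChip as a block was not run, since the files name no chip. Depth does not apply to arrays; levels near the detection limit (log2 5.17 to 5.4 on these arrays) limit the folds of weak genes.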
